A study of Mus musculus with 12 samples.

Results

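The let-7f, let-7g, let-7i and let-7j precursors of the mouse were followed in small RNA libraries of the cerebral cortex. They are mmu-let-7f-1, mmu-let-7f-2, mmu-let-7g, mmu-let-7i and mmu-let-7j, and they were taken by name, as 5 of the 589 miRNA precursors in the table. All 5 were above 0 in each of the 12 libraries, whereas 190 of the 589 precursors were. The let-7 miRNAs are among the most conserved of animals. They repress genes that drive proliferation and the undifferentiated state, their maturation is blocked by the RNA-binding protein LIN28, and they are abundant in the mature brain. A gene of the family may be transcribed alone, within a host gene or in a cluster with other let-7 genes, so that members with the same mature strand can come from different chromosomes.

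The study asked how chronic ethanol and the innate immune receptor TLR4 act on the miRNAs of the cortex. Female mice of strain C57BL/6J, either wild type (WT) or homozygous for a TLR4 knockout (TLR4-KO), were 7 weeks old when treatment began, and for 5 months they drank water or water with 10% (v/v) ethanol (WT + EtOH and TLR4-KO + EtOH). The RNA of 3 mice was pooled in each library and 3 libraries were made per group, from the 9 mice of each group with the best RNA. A spread over 3 libraries is therefore one between pools, not between mice. The knockout mice came from another source than the WT mice, so that genotype and origin cannot be told apart. The libraries hold small RNA and give no check of the Tlr4 mRNA.

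The authors deposited 1 normalized value per precursor and library, on a log-like scale without a unit, with the same highest value (135) in every library. A difference on this scale is not a fold, the table does not give the number of reads behind a value, and a value says mainly where a precursor ranked in its library. Of the 589 precursors, 324 were above 0 in at least 1 library. The precursors above 0 numbered 270, 260 and 260 in the WT libraries and 270, 233 and 229 in WT + EtOH. They numbered 262, 229 and 216 in TLR4-KO and 262, 247 and 236 in TLR4-KO + EtOH. Replicate 1 thus held the most in each group.

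Replicate 1 was also the farthest from the other libraries in 3 of the 4 groups, though replicate 3 came near it in both ethanol groups. Over the 190 precursors above 0 in all 12 libraries, its median absolute distance from the mean of the other libraries of its group was 6.44 in TLR4-KO, 5.03 in WT + EtOH and 4.68 in TLR4-KO + EtOH. In WT it was 1.83. Replicates 2 and 3 lay at 1.92 and 1.39 in WT, at 2.16 and 4.35 in WT + EtOH, at 2.66 and 4.27 in TLR4-KO and at 1.95 and 3.91 in TLR4-KO + EtOH.

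The mature strands are shown because the members differ by so few bases that the separation of their reads bears on every value. They are written 5′ to 3′ as in RefSeq (GRCm38.p6), with the seed, bases 2 to 8, in capitals. All 5 precursors were matched by symbol to the RefSeq entries, and both let-7f precursors carry the first strand.
mmu-let-7f-5p: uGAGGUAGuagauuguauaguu
mmu-let-7g-5p: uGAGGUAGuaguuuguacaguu
mmu-let-7i-5p: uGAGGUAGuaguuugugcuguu
mmu-let-7j: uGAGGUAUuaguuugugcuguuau
With positions counted from 1 at the 5′ end, let-7g differs from let-7f by A12U and U18C, and let-7i differs from let-7g by A17G and A19U. Over the 22 bases that they share, let-7j differs from let-7i by G8U alone, and it has 2 further bases at its 3′ end. The canonical let-7 seed is thus shared by let-7f, let-7g and let-7i, and the seed of let-7j departs from it in its last base. Reads of mmu-let-7f-1 and mmu-let-7f-2 cannot be told apart by the mature strand, and those of let-7i and let-7j only by the ends and 1 base. How the counting divided such reads is not given in the sources used here, so the values of these precursors are uncertain as measures of separate genes.

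The 5 hairpins lie on 5 chromosomes. In GRCm38, mmu-let-7f-1 is at chr13:48537829-48537917 on the minus strand, in exon 2 of the long non-coding RNA 6720427I07Rik, and an annotated miRNA of the opposite strand, Gm24111, overlaps it. That RNA also carries mmu-let-7a-1, 261 bases away, and mmu-let-7d, 1714 bases away. The second let-7f precursor, mmu-let-7f-2, is at chrX:151912346-151912428 on the plus strand, in an intron of Huwe1, which encodes an E3 ubiquitin ligase. The related mmu-mir-98 is 785 bases away in the same gene. mmu-let-7g is at chr9:106178840-106178927 on the plus strand, in an intron of Wdr82, which encodes a subunit of a histone H3 methyltransferase complex. mmu-let-7i is at chr10:122985640-122985724 on the minus strand, within exon 1 of D630033A02Rik, listed as a transcribed processed pseudogene. mmu-let-7j is at chr3:140028249-140028370 on the plus strand and overlaps no other gene of GENCODE M21. The gene nearest to it is the processed pseudogene Gm4863, 88284 bases away, and the nearest protein-coding gene is Stpg2, 317949 bases away.

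The cortex label was checked on miRNAs of known cell types. All 10 precursors listed for neurons and brain (miR-124, miR-9, miR-128 and miR-138) were above 0 in every library, with mmu-mir-9-1 between 84.9 and 94.6. Those of miR-124 were far lower, with mmu-mir-124-1 at 24.8 to 44.8, mmu-mir-124-2 at 24.2 to 42.5 and mmu-mir-124-3 at 36.1 to 50.2. mmu-mir-128-2 was at 25.2 to 34.9. Of the 3 oligodendrocyte precursors, mmu-mir-338 was between 29.2 and 49.8, but mmu-mir-219a-1 was at 0 in 11 libraries and mmu-mir-219a-2 in 7. Of the precursors of other cells, mmu-mir-223 (myeloid cells) and mmu-mir-449a (ciliated cells) were at 0 in all libraries. The leukocyte precursors mmu-mir-150 (68.7 to 81.1) and mmu-mir-142a (28.2 to 55.5) were above 0 in all libraries. So were mmu-mir-34c of the ciliated cell list (39.1 to 53.6) and mmu-mir-143 of the vessel list (76.0 to 85.2). mmu-mir-429 is not analysed here. Of the 4 red cell precursors, 3 were above 0 in all libraries, with mmu-mir-486a highest at 102 to 108, and mmu-mir-144 was at 0 in 9 of 12.

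On the deposited scale the mean over the 12 libraries was 87.0 ± 3.56 for mmu-let-7f-2 and 82.9 ± 3.13 for mmu-let-7f-1 (SD, n = 12). It was 76.4 ± 4.15 for mmu-let-7g, 73.5 ± 6.42 for mmu-let-7i and 55.8 ± 7.42 for mmu-let-7j. These means took ranks 26, 30, 42, 49 and 74 among the 324 precursors above 0 in at least 1 library. The let-7f precursors were thus the highest of the 5 and mmu-let-7j the lowest. mmu-let-7f-2 lay above mmu-let-7f-1 in 12 of 12 libraries, by 1.02 to 6.71, and mmu-let-7f-1 above mmu-let-7g in 12 of 12, by 2.69 to 9.16. mmu-let-7i lay above mmu-let-7j in 12 of 12, by 13.1 to 32.1. The order of mmu-let-7g and mmu-let-7i was not resolved. Their mean gap of 2.93 was smaller than its SD of 6.77, and mmu-let-7i was the higher in replicate 1 of TLR4-KO and of TLR4-KO + EtOH. The other let-7 precursors spanned this range and beyond it, from 103 ± 3.03 for mmu-let-7c-2 at rank 11 to mmu-mir-98 at rank 112.

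**Figure D1:**
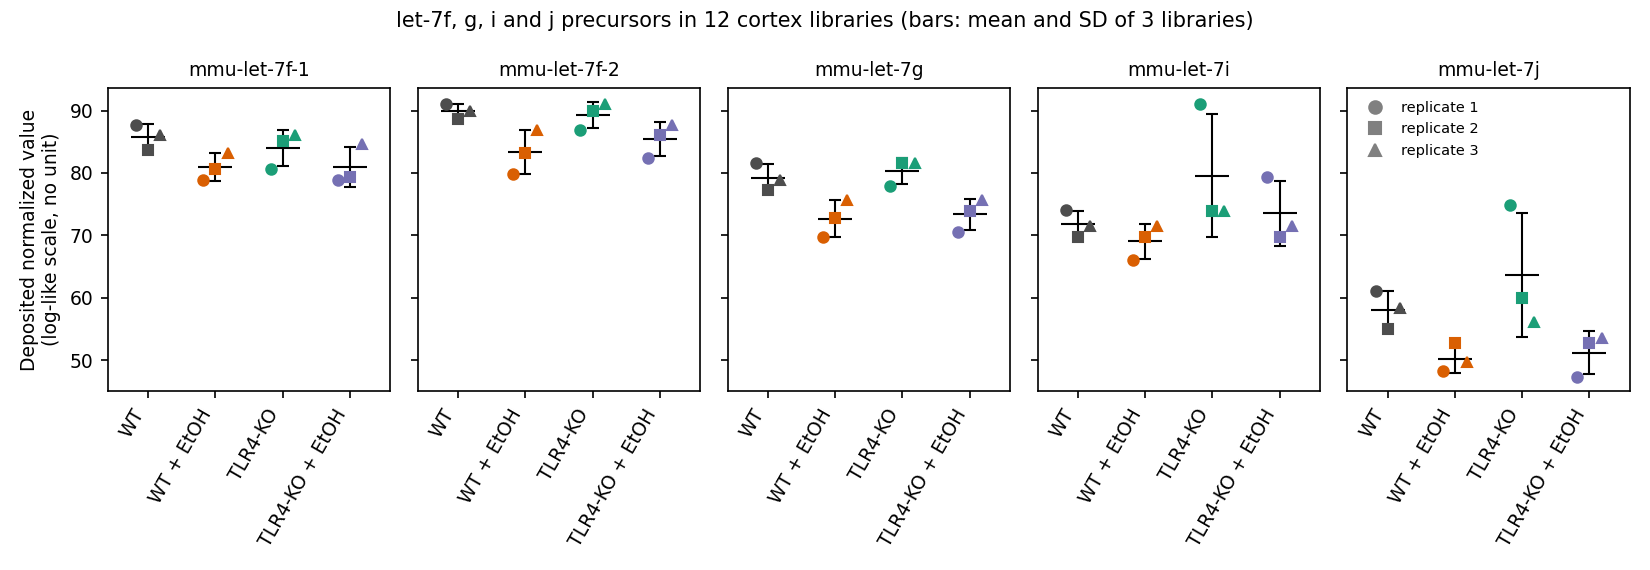
Deposited normalized value (vertical axis, log-like scale without a unit) of each precursor in the 12 libraries, by group, with symbols for the replicate number and bars for the mean and SD of 3 libraries. mmu-let-7g lay at 77.3 to 81.6 in WT and 78.0 to 81.6 in TLR4-KO, above 69.7 to 75.6 in WT + EtOH and 70.6 to 75.6 in TLR4-KO + EtOH; replicate 1 of TLR4-KO stood alone for mmu-let-7i (91.0) and mmu-let-7j (74.8).

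The comparisons between groups share libraries with each other, so that they are not independent. In WT mice, the effect of ethanol was read from WT + EtOH against WT. The value of mmu-let-7f-1 was 87.7, 83.7 and 86.1 in replicates 1 to 3 of WT and 78.8, 80.6 and 83.3 in WT + EtOH. All ethanol libraries lay below all WT libraries, though the nearest of the 2 groups were only a little apart. For mmu-let-7f-2 the values were 91.0, 88.7 and 90.0 in WT and 79.9, 83.3 and 86.9 in WT + EtOH, again without overlap. mmu-let-7g stood at 81.6, 77.3 and 78.8 in WT and at 69.7, 72.7 and 75.6 in WT + EtOH. It too was lower in every ethanol library. mmu-let-7j was at 61.0, 55.0 and 58.3 in WT and at 48.2, 52.7 and 49.8 in WT + EtOH, and its groups did not overlap either. mmu-let-7i, a miRNA reported to target the TLR4 mRNA in bile duct cells, was the exception, with 74.1, 69.7 and 71.5 in WT and 66.0, 69.7 and 71.5 in WT + EtOH. Its values in replicates 2 and 3 were the same in both groups. The groups of 4 of the 5 members thus did not overlap, all with the lower values under ethanol. Among the 324 precursors, 17.3% were lower without overlap and 13.3% higher. The let-7f precursors share a mature strand, so that in this and all later counts of members they may not be separate measurements.

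The mean difference, WT + EtOH minus WT, was −4.92 for mmu-let-7f-1 (SE 2.11, 95% interval −9.75 to −0.100). It was −6.53 for mmu-let-7f-2 (SE 2.03, −11.2 to −1.89) and −6.56 for mmu-let-7g (SE 1.98, −11.1 to −2.03). mmu-let-7i differed by −2.69 (SE 4.69, −13.4 to 8.06) and mmu-let-7j by −7.89 (SE 4.46, −18.1 to 2.32). None of these differences passed the test across all precursors. The adjusted p from limma was 0.190 for mmu-let-7g, 0.196 for mmu-let-7f-2, 0.379 for mmu-let-7f-1, 0.618 for mmu-let-7j and 1 for mmu-let-7i. So 0 of 5 members were called at an adjusted p under 0.05, where 1.7% of the 589 precursors were called. At an unadjusted p under 0.05, 3 of 5 were lower (mmu-let-7f-1, mmu-let-7f-2 and mmu-let-7g), against 6.45% of the 589, and 12.6% in either direction. The 6.45% are 38 precursors, all among the 324 above 0 in at least 1 library, so that the share is higher among these. The median difference of the 5 members was −6.53, and that of the 324 precursors was 0. The two-sided exact permutation test gave 0.1 for the 4 members without overlap, which is the smallest p that 3 libraries against 3 allow, and 0.5 for mmu-let-7i.

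All 5 differences were also below 0 after centring on the miR-181 controls. Both miR-181a precursors had constant values, and centring moved mmu-let-7f-1 only from −4.92 to −4.83. It could therefore hardly give other directions and is no separate check of them. The libraries largely share their levels, with 386 distinct values over all libraries for 2974 values above 0. Quantile normalization and ranks could therefore hardly give other directions and are no separate check here. The call depended on the model of the spread. With robust variance estimates and a mean trend, mmu-let-7f-2 passed the threshold (limma adjusted p = 0.0192), 1 of 18 precursors called by that fit, whereas over all other settings tried its adjusted p was from 0.0786 to 0.480. From replicates 2 and 3 alone, the median difference of the members was −3.89, with mmu-let-7i at 0. The SE of mmu-let-7j comes from a spread pooled over all groups, the first TLR4-KO library included. Without that library the difference was the same with an SE of 2.33, and the limma adjusted p was 0.132, beside 0.159 to 1 over the other settings.

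TLR4-KO against WT compares the genotypes, and with them the origins of the mice, without ethanol. In TLR4-KO, mmu-let-7f-1 was at 80.6, 85.2 and 86.1 and mmu-let-7f-2 at 86.9, 90.0 and 91.0. mmu-let-7g was at 78.0, 81.6 and 81.6. All these overlapped with WT. mmu-let-7i was at 91.0, 73.9 and 73.9, and mmu-let-7j at 74.8, 59.96 and 56.1. The first library stood far above the other two for these near-identical strands, by 17.1 for mmu-let-7i and 16.8 for mmu-let-7j. In it mmu-let-7i took rank 21 and lay above mmu-let-7f-2, which happened in none of the other 11 libraries. Both values, 91.0 for mmu-let-7i and 74.8 for mmu-let-7j, are in doubt, as are the rank, the order and each difference that rests on them, and no read counts were used here to check them. In the same library the values of mmu-let-7f-1, mmu-let-7f-2 and mmu-let-7g were below those of the other two, with distances of −4.98, −3.55 and −3.62. No member had groups without overlap, whereas 13% of the 324 precursors were higher and 15.4% lower without overlap. mmu-let-7i was higher without overlap after centring on the miR-181 controls, where 12% of the precursors were, and without replicate 1 of WT, where 15.1% were.

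The difference, TLR4-KO minus WT, was −1.87 for mmu-let-7f-1 (SE 2.11), −0.593 for mmu-let-7f-2 (SE 2.03) and 1.15 for mmu-let-7g (SE 1.98). For mmu-let-7i it was 7.81 (SE 4.69, 95% interval −2.94 to 18.6) and for mmu-let-7j 5.52 (SE 4.46, −4.69 to 15.7). The lowest adjusted p from limma was 0.671, for mmu-let-7i, so that 0 of 5 members were called, with 2.55% of the 589 precursors called. At an unadjusted p under 0.05 there were also 0 of 5, against 12.2% of the 589. The exact permutation p was 0.3 for mmu-let-7i and 0.5 to 0.9 for the others. Both larger differences rested on replicate 1 of TLR4-KO: without it, they were 2.10 for mmu-let-7i and −0.0754 for mmu-let-7j. The direction for mmu-let-7f-2 also turned without that library, to 0.591. From replicates 2 and 3 alone, mmu-let-7g and mmu-let-7i were higher in TLR4-KO without overlap (differences 3.53 and 3.27), where 24.7% of the 324 precursors were; limma called 0 of 5 members, with 2 at an unadjusted p under 0.05, and 26 of the 324 precursors, with 72 at such a p.

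**Figure D2:**
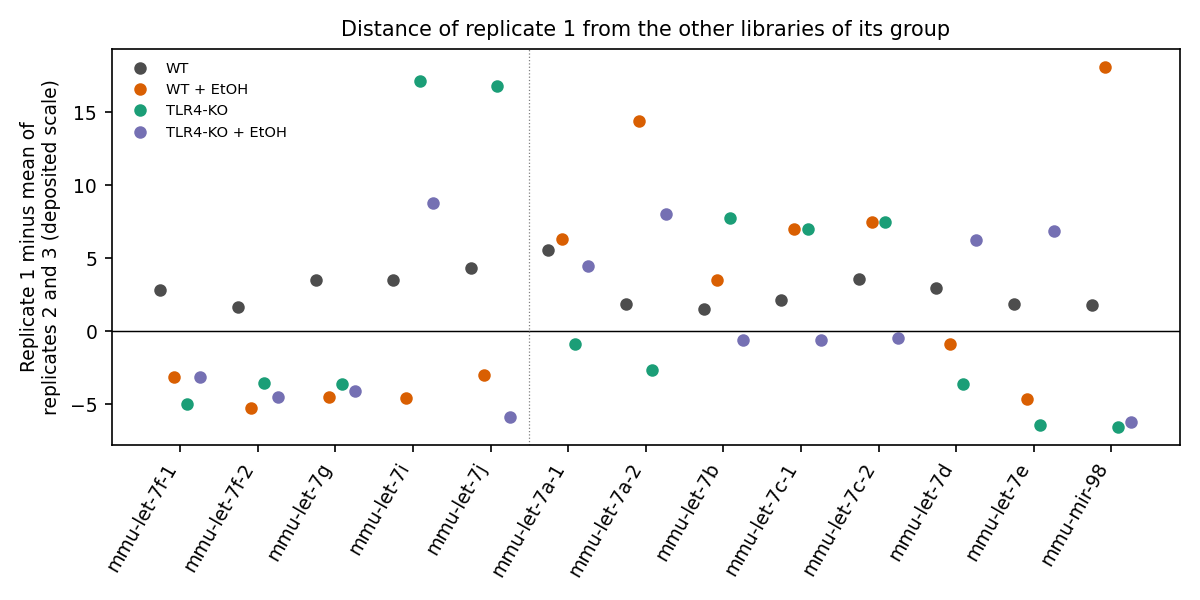
Value of replicate 1 minus the mean of replicates 2 and 3 of its group (vertical axis, deposited log-like scale without a unit) for the 5 members, left of the dotted line, and 8 other let-7 family precursors. In TLR4-KO the first library was 17.1 higher for mmu-let-7i and 16.8 higher for mmu-let-7j, but −4.98 for mmu-let-7f-1.

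In TLR4-KO mice, ethanol was again accompanied by lower values of mmu-let-7g and mmu-let-7j. mmu-let-7g was at 70.6, 73.9 and 75.6 in TLR4-KO + EtOH, below all 3 libraries of TLR4-KO. mmu-let-7j was at 47.3, 52.7 and 53.6, also below all of them. The remaining members overlapped between these groups. mmu-let-7f-1 was at 78.8, 79.4 and 84.6 in TLR4-KO + EtOH, mmu-let-7f-2 at 82.4, 86.1 and 87.7, and mmu-let-7i at 79.4, 69.7 and 71.5. For mmu-let-7i the first library was again the highest, by 8.79 over the mean of the other two. Groups without overlap were thus seen for 2 of 5 members, both lower, where 4.01% of the 324 precursors were lower and 7.1% higher without overlap. This count depended on single libraries of both groups. It was 4 of 5 without replicate 3 of TLR4-KO + EtOH (5.56% of the precursors) and 3 of 5 without its replicate 1 or after centring on the miR-181 controls (6.17% in each case).

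The difference, TLR4-KO + EtOH minus TLR4-KO, was −7.02 for mmu-let-7g (SE 1.98, 95% interval −11.6 to −2.50) and −12.4 for mmu-let-7j (SE 4.46, −22.7 to −2.23). It was −6.05 for mmu-let-7i (SE 4.69), −3.88 for mmu-let-7f-2 (SE 2.03) and −3.03 for mmu-let-7f-1 (SE 2.11). The adjusted p from limma was 0.341 for mmu-let-7g, 0.533 for mmu-let-7j and 0.914 or above for the others, so that 0 of 5 members were called, with 0.34% of the 589 precursors called. At an unadjusted p under 0.05, 2 of 5 were lower (mmu-let-7g and mmu-let-7j), against 2.72% of the 589 (16 precursors, all among the 324), and 6.96% in either direction. The exact permutation p was 0.1 for both, the smallest possible, and from 0.2 to 0.5 for the others. The median difference of the members was −6.05, and that of the 324 precursors was 0. All 5 differences stayed below 0 after centring on the miR-181 controls. Centring moved them away from 0 (mmu-let-7f-1 from −3.03 to −3.97), so that it is no separate check of the directions.

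Replicate 1 of TLR4-KO bore on this comparison too. Without it, the difference of mmu-let-7j was −6.85 and that of mmu-let-7i −0.337, whereas mmu-let-7g stood at −8.23, mmu-let-7f-2 at −5.07 and mmu-let-7f-1 at −4.69. The groups of 4 of 5 members then did not overlap, with 10.8% of the precursors lower without overlap. From replicates 2 and 3 alone, all 5 members were lower without overlap, with 14.8% of the precursors, and their median difference was −3.64. With robust variance estimates and a mean trend, mmu-let-7j passed the threshold (limma adjusted p = 0.0258), 1 of 3 precursors called by that fit, whereas over all other settings tried its adjusted p was from 0.186 to 1. That fit holds the first TLR4-KO library, on which the size of the difference depends.

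Under ethanol no difference between the genotypes was resolved for the members. TLR4-KO + EtOH minus WT + EtOH was 0.0202 for mmu-let-7f-1 (SE 2.11, 95% interval −4.80 to 4.84) and 2.06 for mmu-let-7f-2 (SE 2.03, −2.59 to 6.70). It was 0.685 for mmu-let-7g (SE 1.98, −3.84 to 5.21), 4.45 for mmu-let-7i (SE 4.69, −6.30 to 15.2) and 0.968 for mmu-let-7j (SE 4.46, −9.25 to 11.2). The difference of mmu-let-7i rested on the first libraries, since its values in replicates 2 and 3 were the same in both groups. It was 0 from these alone, and 1.52 to 6.37 with 1 library left out in turn. The groups overlapped for all 5, where 4.32% of the 324 precursors were higher and 4.63% lower without overlap. The adjusted p from limma was 1 for each, 0 of 5 were called and 0 of 5 had an unadjusted p under 0.05, where 0.509% of the 589 precursors were called and 4.58% had such a p. Centring on the miR-181 controls turned the sign of the small differences of mmu-let-7f-1, mmu-let-7g and mmu-let-7j, to −1.17, −0.503 and −0.220.

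Whether ethanol acted differently in the genotypes was tested directly, as the ethanol difference in TLR4-KO less that in WT. This contrast was −0.463 for mmu-let-7g (SE 2.79, 95% interval −6.86 to 5.94), 1.89 for mmu-let-7f-1 (SE 2.98, −4.93 to 8.72) and 2.65 for mmu-let-7f-2 (SE 2.87, −3.92 to 9.22). For mmu-let-7i it was −3.36 (SE 6.64, −18.6 to 11.8) and for mmu-let-7j −4.56 (SE 6.30, −19.0 to 9.89). All adjusted p from limma were 1, with 0 of 5 called, 0 of 5 at an unadjusted p under 0.05 where 1.19% of the 589 precursors were called and 12.6% had such a p. The intervals leave room for differences as large as the ethanol differences themselves, so that likeness between genotypes is not shown. Without replicate 1 of TLR4-KO the contrast had the opposite sign for mmu-let-7i (2.35) and mmu-let-7j (1.04). From replicates 2 and 3 alone it was −3.27 for mmu-let-7i, 0.562 for mmu-let-7j and −2.97 for mmu-let-7g, so that the sign for mmu-let-7i depended on which libraries were left out.

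Over all libraries the differences of the rest of the let-7 family lay on both sides of 0, and no test set them against the 5 members. Of 9 other family precursors looked for, 8 were measured, and mmu-let-7k is not analysed here. Between WT + EtOH and WT, 5 of the 8 had a difference above 0 and 3 below 0, with a median of 1.85, and 0 were called by limma. Their median was 0.542 from replicates 2 and 3 alone. Only mmu-let-7b, named after its values were seen, had groups without overlap, with 84.6, 82.4 and 83.7 in WT and 93.0, 90.3 and 88.7 in WT + EtOH (difference 7.11, SE 2.38, limma adjusted p = 0.233). Between TLR4-KO + EtOH and TLR4-KO, 4 of the 8 were above 0 and 4 below 0, with a median of −0.709 and 0 called. From replicates 2 and 3 alone, 1 was above 0 and 5 were below 0 there. Between TLR4-KO and WT, 5 of 8 were above 0, with a median of 1.20 beside 1.15 for the 5 members. With replicates 2 and 3 alone, 8 of 8 others and 5 of 5 members were above 0, with medians of 1.26 and 1.38. There again mmu-let-7b had groups without overlap, with 98.3, 92.4 and 88.7 in TLR4-KO (difference 9.56, SE 2.38, limma adjusted p = 0.0874). With robust variance estimates and a mean trend, mmu-let-7b was called in both comparisons, with a limma adjusted p of 0.00587 between WT + EtOH and WT, beside 0.0740 to 0.567 over the other settings, and of 2.39e-05 between TLR4-KO and WT. Between TLR4-KO and WT it was also called with the filter on precursors above 0 in at least 3 libraries (limma adjusted p = 0.0418) and without replicate 3 of TLR4-KO (0.0305), and over the other settings the adjusted p was from 0.0539 to 0.296.

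**Figure D3:**
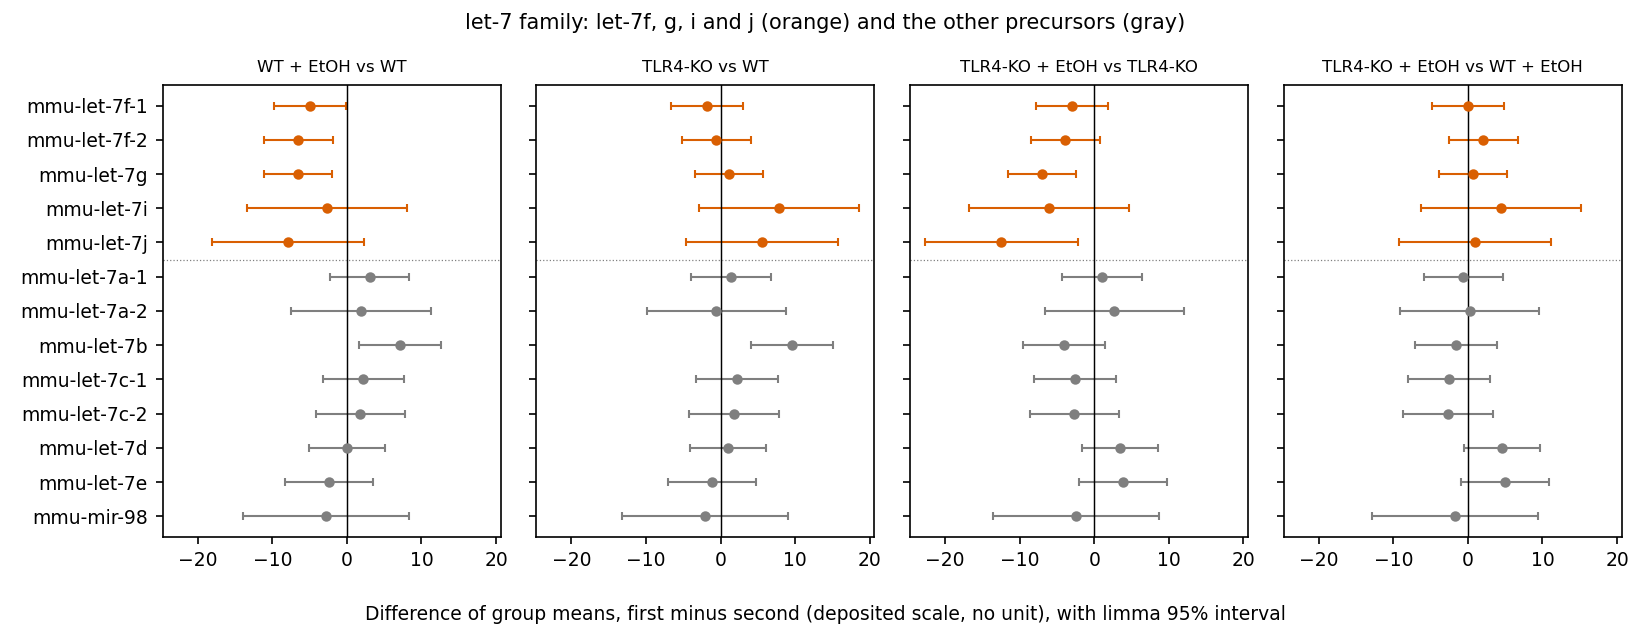
Difference of group means (horizontal axis, first minus second group, deposited log-like scale without a unit) with the 95% interval from limma in 4 comparisons, for the 5 members (orange) and 8 other let-7 family precursors (gray). Between WT + EtOH and WT all 5 members lay below 0, from −2.69 to −7.89, and 5 of the 8 others above 0.

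Precursors of one transcript were set beside the members. mmu-let-7a-1 and mmu-let-7d share their long non-coding RNA with mmu-let-7f-1. The let-7f precursors share a mature strand, so that neither of their values can be assigned to a single transcript. mmu-let-7a-1 was at 92.9 ± 3.48 in WT and 95.9 ± 3.74 in WT + EtOH (SD, n = 3), a difference of 3.04 (SE 2.32), where mmu-let-7f-1 had −4.92. mmu-let-7d was at 77.4 ± 1.90 in WT and 77.4 ± 1.77 in WT + EtOH. In TLR4-KO + EtOH minus TLR4-KO, mmu-let-7a-1 differed by 1.02 (SE 2.32) and mmu-let-7d by 3.51 (SE 2.22), beside −3.03 for mmu-let-7f-1. The difference of mmu-let-7d was 0.224 from replicates 2 and 3 alone and from 1.43 to 5.84 with 1 library left out. mmu-mir-98, in the Huwe1 intron with mmu-let-7f-2, was at 45.1 ± 2.10 in WT and 42.3 ± 10.6 in WT + EtOH, where its libraries spread from 34.2 to 54.3. Its difference between these groups was −2.82 (SE 4.87) over all libraries and −8.25 (SE 2.16) from replicates 2 and 3 alone. In TLR4-KO + EtOH minus TLR4-KO it differed by −2.44 (SE 4.87), beside −3.88 for mmu-let-7f-2. None of these differences passed the limma threshold, and whether neighbours differed from each other was not tested.

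By their profiles over all 12 libraries the let-7f and let-7g precursors lay close together, and mmu-let-7i and mmu-let-7j lay farther off. The let-7f precursors share a mature strand, so that like profiles cannot be told apart from a division of the same reads. The doubted values of mmu-let-7i and mmu-let-7j in the first library of TLR4-KO enter every distance of these precursors. Distances without that library were not computed. As a measure of likeness, each profile over the 12 libraries was centred on its own mean, and the mean absolute difference between profiles was taken. It was 1.10 between mmu-let-7f-2 and mmu-let-7g, 1.22 between mmu-let-7f-1 and mmu-let-7f-2 and 1.70 between mmu-let-7f-1 and mmu-let-7g. Between mmu-let-7i and mmu-let-7j it was 3.14, and between mmu-let-7i and the let-7f and let-7g precursors it was from 4.61 to 4.96. mmu-let-7j was as near to mmu-let-7g (3.04) as to mmu-let-7i, and farther from mmu-let-7f-2 (3.68) and mmu-let-7f-1 (4.01). In the first library of TLR4-KO, mmu-let-7g lay above mmu-let-7j by only 3.12, whereas their mean gap over the 12 libraries was 20.6. This order of distances thus rests in part on that library and is uncertain. Among the 185 other precursors above 0 in all libraries, the profiles most like mmu-let-7f-1 were those of mmu-mir-218-2 (1.57), mmu-mir-126b (1.67) and mmu-mir-3074-2 (1.68). The nearest to mmu-let-7f-2 were mmu-mir-708 (1.93), mmu-mir-218-2 (1.96) and mmu-mir-126a (1.97). For mmu-let-7g they were mmu-mir-708 (2.36), mmu-mir-218-1 (2.49) and mmu-mir-218-2 (2.53). These are descriptions without a test. mmu-let-7i came closest to mmu-mir-337 (2.25), mmu-mir-3544 (2.37) and mmu-mir-380 (2.42), and mmu-let-7j to mmu-mir-329 (3.74), mmu-mir-380 (3.90) and mmu-mir-134 (4.15). The median over the 185 precursors was from 4.45 for mmu-let-7f-1 to 6.16 for mmu-let-7j.

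Several miRNAs of known cell types also had groups without overlap where the members did. Some had them between TLR4-KO and WT too, where no member did. There mmu-mir-451a was lower (difference −17.6, SE 2.63, limma adjusted p = 0.00948) and mmu-mir-150 higher (9.28, SE 1.43, limma adjusted p = 0.00958). Of the brain list, the 3 of miR-9 were also lower without overlap there, and mmu-mir-128-1 was higher (8.24). Of the vessel list, mmu-mir-126a (−5.37) and mmu-mir-143 (−4.53) were lower and mmu-mir-145a higher (6.91). The red cell precursor mmu-mir-486b was higher too. Lower without overlap were also mmu-mir-142a (−11.8), mmu-mir-338 (−5.64) and mmu-mir-219a-2 (−4.56). Apart from mmu-mir-451a and mmu-mir-150, none of these was called. Of the 10 brain precursors, the 3 of miR-9 were lower in every WT + EtOH library than in WT, from −4.74 to −5.96, and the pair of miR-128 higher (9.29 and 4.01), none of them called. The brain list, led by miR-9 or miR-138, summed to 647, 653 and 651 in WT and to 669, 658 and 660.2 in WT + EtOH. In TLR4-KO it summed to 612, 657 and 668, and in TLR4-KO + EtOH to 656, 656 and 633. The red cell precursor mmu-mir-451a was at 50.2, 50.2 and 46.3 in WT and at 31.7, 35.3 and 36.0 in WT + EtOH, a fall that passed the threshold (difference −14.6, SE 2.63, limma adjusted p = 0.0346). The list of 4 red cell precursors, led by mmu-mir-486a, summed to 255, 256 and 241 in WT and to 247, 243 and 245 in WT + EtOH. In TLR4-KO it summed to 231, 239 and 244, and in TLR4-KO + EtOH to 219, 232 and 241. In the same list mmu-mir-486b was higher without overlap in WT + EtOH (difference 8.19, SE 2.53, limma adjusted p = 0.196), and mmu-mir-486a and mmu-mir-144 overlapped. Of the 3 vessel precursors, mmu-mir-126a and mmu-mir-143 lay lower in each ethanol library of the WT mice (differences −6.58 and −6.45), while mmu-mir-145a was higher (8.09). The vessel list, led by mmu-mir-143, summed to 196, 203 and 204 in WT and to 195, 197 and 196 in WT + EtOH. In TLR4-KO it summed to 192, 199.5 and 202, and in TLR4-KO + EtOH to 195, 200.1 and 201. Between TLR4-KO + EtOH and TLR4-KO, where mmu-let-7g and mmu-let-7j did not overlap, all 4 red cell and all 3 vessel precursors overlapped, but mmu-mir-150 was lower in every ethanol library (difference −3.01) and mmu-mir-338 higher (8.50), neither of them called. The leukocyte precursor mmu-mir-150 was at 69.7, 68.7 and 69.7 in WT and at 74.1, 76.8 and 79.4 in WT + EtOH, a rise (7.41, SE 1.43, limma adjusted p = 0.0444). The other leukocyte precursor above 0, mmu-mir-142a, was at 44.2, 45.9 and 42.7 in WT and at 55.5, 28.3 and 40.5 in WT + EtOH, with overlap (difference −2.81, SE 6.22). The leukocyte list of 3, led by mmu-mir-150, summed to 114, 115 and 112 in WT and to 129.6, 105 and 119.9 in WT + EtOH. In TLR4-KO it summed to 109, 109 and 115, and in TLR4-KO + EtOH to 105, 105 and 114. The precursors of the choroid plexus and of ciliated cells, led by mmu-mir-34c, summed to 78.9, 93.9 and 94.5 in WT and to 51.9, 45.6 and 46.4 in WT + EtOH. In TLR4-KO they summed to 59.2, 76.1 and 67.9, and in TLR4-KO + EtOH to 53.6, 39.1 and 50.6, where mmu-mir-200a and mmu-mir-200b were at 0 in all 3 libraries. Between WT + EtOH and WT both were lower without overlap, by −18.0 (SE 4.68, limma adjusted p = 0.120) and −22.4 (SE 4.75, limma adjusted p = 0.0616), neither of them called, and mmu-mir-34c overlapped (−0.768). The part of these cell types in the values of the members was not tested. In bulk tissue, fewer cells of a type and less RNA per cell cannot be told apart.

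Of the miR-181 precursors that the study used as internal controls, none was called. Both miR-181a precursors had 1 value throughout, 135 for mmu-mir-181a-1 and 124 for its copy mmu-mir-181a-2, so that they show nothing of how constant the controls were and centring rests on miR-181b. mmu-mir-181b-1 differed by −0.724 (SE 1.86) and mmu-mir-181b-2 by 0.346 (SE 1.11) between WT + EtOH and WT. Between TLR4-KO + EtOH and TLR4-KO the differences were 2.84 and 0.904, and between TLR4-KO + EtOH and WT + EtOH, where centring turned the sign of 3 members, they were 2.84 and 1.92. The groups overlapped for both in each of these comparisons.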

How the data were processed

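Per the submitters' processing notes and the study's methods, adapter ends were cut off with cutadapt and alignment used Bowtie2 2.2.5 and TopHat on collections of non-coding RNAs (GRCm38); the authors then dropped poor alignments and counted and normalized reads per precursor. The deposited unit is a score. The authors' exact transformation is not given in the sources used here. The trimmed mean of M values, which the methods name, would not give levels that the libraries largely share. The members and lists were chosen with earlier results of these data known. The named precursors are the 5 members, the let-7 family with precursors beside a member named singly, the miR-181 controls, the cell type lists and the 3 nearest profiles per member. Differences were tested with limma 3.58.1 in R 4.3.3 (1 mean per group, 12 libraries, no covariate, default empirical Bayes) and Benjamini-Hochberg adjustment over 589 precursors, threshold 0.05. The procedure was tested on simulated data. Exact permutation tests used scipy 1.17.1 in Python 3.11.15. Tables were made with pandas 2.3.3 and numpy 2.4.6, and figures with matplotlib 3.10.9. Loci are from GENCODE M21. The alternatives were quantile normalization, centring on miR-181a and miR-181b, ranks, a filter (above 0 in at least 3 libraries, 285 precursors), only the groups compared, a replicate block, replicates 2 and 3 only, robust empirical Bayes with a trend, and each library left out.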

Additional observations from a re-analysis of the deposited data

How the results depend on the processing

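Over the 20 alternatives, the 495 recomputed differences of members kept direction and side of the threshold in 467 cases, and 23 had the opposite sign, 16 of them with 1 library left out. In many of the 495 cases the direction was fixed in advance. The filter, the fit of only the groups compared, the replicate block and the robust fit leave the mean difference unchanged. So does leaving out a library of a group not compared. The 467 cases are therefore no measure of how stable the directions are. With robust variance estimates and a trend, 1 member was called between WT + EtOH and WT (mmu-let-7f-2, of 18 precursors called in all) and 1 between TLR4-KO + EtOH and TLR4-KO (mmu-let-7j, of 3); the cause was not tested. From replicates 2 and 3 alone, TLR4-KO minus WT was 0.720 for mmu-let-7f-1 and 1.15 for mmu-let-7f-2, the difference of ethanol effects was −0.690 for mmu-let-7f-1 and 0.562 for mmu-let-7j, WT + EtOH minus WT was 1.26 for mmu-let-7d, and TLR4-KO + EtOH minus TLR4-KO was −0.767 for mmu-let-7a-1. With centring on miR-181a and miR-181b, TLR4-KO + EtOH minus WT + EtOH was −1.17 for mmu-let-7f-1, −0.503 for mmu-let-7g and −0.220 for mmu-let-7j, with a median of −0.220, and WT + EtOH minus WT was 0.0750 for mmu-let-7d. The causes of these reversals were not tested.

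With 1 library left out in turn, TLR4-KO minus WT ranged from −2.94 to −0.214 for mmu-let-7f-1, from −1.44 to 0.591 for mmu-let-7f-2, from 0.167 to 2.35 for mmu-let-7g, from 2.10 to 10.7 for mmu-let-7i and from −0.0754 to 9.28 for mmu-let-7j. TLR4-KO + EtOH minus TLR4-KO ranged from −4.86 to −1.97 for mmu-let-7f-1, from −5.07 to −2.39 for mmu-let-7f-2, from −8.98 to −0.337 for mmu-let-7i and from −16.2 to −6.85 for mmu-let-7j. TLR4-KO + EtOH minus WT + EtOH ranged from −1.81 to 1.20 for mmu-let-7f-1, from 0.310 to 3.84 for mmu-let-7f-2, from −0.811 to 2.15 for mmu-let-7g and from −0.255 to 2.94 for mmu-let-7j, and its median from −0.255 to 2.15. The difference of ethanol effects ranged from 0.0639 to 3.07 for mmu-let-7f-1, from 0.902 to 4.44 for mmu-let-7f-2, from −1.96 to 1.002 for mmu-let-7g, from −6.29 to 2.35 for mmu-let-7i and from −8.31 to 1.04 for mmu-let-7j, and its median from −1.96 to 1.04. WT + EtOH minus WT ranged from −3.91 to −1.17 for mmu-let-7i, from 0.927 to 4.89 for mmu-let-7a-1, from −1.01 to 0.965 for mmu-let-7d and from −8.86 to 1.19 for mmu-mir-98, and TLR4-KO + EtOH minus TLR4-KO from −0.480 to 2.15 for mmu-let-7a-1 and from −4.62 to −0.357 for mmu-mir-98. The causes were not tested.

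The precursors called in all moved more. Between WT + EtOH and WT they were 10, with 4 to 18 when 1 library was left out and 7 to 26 under the other settings; between TLR4-KO and WT 15, with 11 to 22 and 13 to 31; between TLR4-KO + EtOH and TLR4-KO 2, with 0 to 4 and 0 to 3; between TLR4-KO + EtOH and WT + EtOH 3, with 0 to 3 and 0 to 4; and for the difference of ethanol effects 7, with 2 to 15 and 3 to 13.

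With the replicate number as a block, limma called 0 members in each of the 5 comparisons (3, 0, 3, 0 and 0 at an unadjusted p under 0.05, where 73, 74, 41, 27 and 78 of all precursors were) and 13, 24, 3, 2 and 3 precursors in all, in the same order, with a lowest adjusted p of 0.0786 (mmu-let-7f-2, WT + EtOH against WT). Nothing in the labels says what a shared number marks. Over 18 same-numbered pairs the correlation of deviations was from −0.109 to 0.153 with a median of 0.113, over 0.1 in 10, and the median over other pairs was −0.0376. Of 12 libraries, 6 correlated best with their own number, so that a partial likeness by number was seen but not in every pair. The deposited table holds no read counts, so that no detection limit is given for low values.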
